A study of Mus musculus with 8 samples.

Results

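The genes described here handle iron, copper and zinc in the choroid plexus of the mouse embryo: the transporters of the Slc11a, Slc30a, Slc31a, Slc39a and Slc40a families, the Steap metalloreductases, the ferroxidases, the transferrin receptors, ferritin heavy chain, the copper ATPases and their chaperone, and the metallothioneins. The rule goes by gene symbols and uses no measured value, but it was written with earlier results of these data known. Of 18193 genes with a symbol of their own on the array, 44 met the rule, 33 through the family pattern of their symbol and 11 because they were listed by name. The rule listed 13 genes by name, and Trf and Ftl1 were not analysed here because the array annotation pairs their probe sets with other genes as well. The 44 genes were read by 91 probe sets, and the probe set with the highest mean over all arrays stood for each gene.

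Total RNA of the fourth ventricle choroid plexus was measured on 8 arrays, which the labels call biological replicates. The 4 arrays of 1 group carry the genotype label Otx2 k.o. and come from a published Otx2-deficient strain, and the 4 arrays of the other group are labelled wildtype littermates. All embryos were at embryonic day 13, untreated and of mixed strain background, and their sex was not determined. The sources used here do not give where and when Otx2 was removed, or how many embryos went into a sample.

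Epithelial cells of the choroid plexus lie between blood and cerebrospinal fluid, and the metals that reach the brain fluid by this route pass through them. Iron enters cells bound to transferrin or through Slc11a2, is reduced by Steap enzymes, stored in ferritin, and leaves through ferroportin (Slc40a1) with the help of a multicopper ferroxidase such as ceruloplasmin (Cp) or hephaestin (Heph). Copper enters through Slc31a1, is carried by Atox1 to the ATPases Atp7a and Atp7b, and is loaded by them into cuproenzymes or pumped out. Zinc is moved into the cytosol by ZIP proteins (Slc39a) and out of it by ZnT proteins (Slc30a), and metallothioneins bind zinc and copper inside the cell.

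Relative to wildtype, 7 of the 44 genes were higher and 12 were lower in the arrays labelled knockout, and 25 did not pass the test. Passing means a Benjamini-Hochberg adjusted p under 0.05 over all 18193 genes in a limma fit. Every difference below is knockout-labelled minus wildtype on the log2 scale of the deposited values, where 1 unit is a factor of 2 and a sign below 0 means lower in the knockout-labelled arrays. Among all genes 7.84% were called higher and 11.7% lower, against 15.9% and 27.3% of these 44, so that 43.2% of them passed where the share of all genes was 19.6%. Of the 44, 5 had a mean level at or below the median of all probe sets, and the shares of all genes were not matched for level. The arrays of the 2 groups did not overlap for 22 of the 44 genes, or 50%, where the share over all genes was 24.3%. Of these 22 genes, 18 also passed the test. The median difference of the 44 was -0.08, beside 0.00 over all genes, and 5 of the genes called differed by a factor of at least 2 (Cp, Steap1, Slc31a1, Atp7b and Slc39a12). The other 318 measured genes of the Slc families held 18 called higher (5.66%) and 55 called lower (17.3%).

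**Figure D1:**
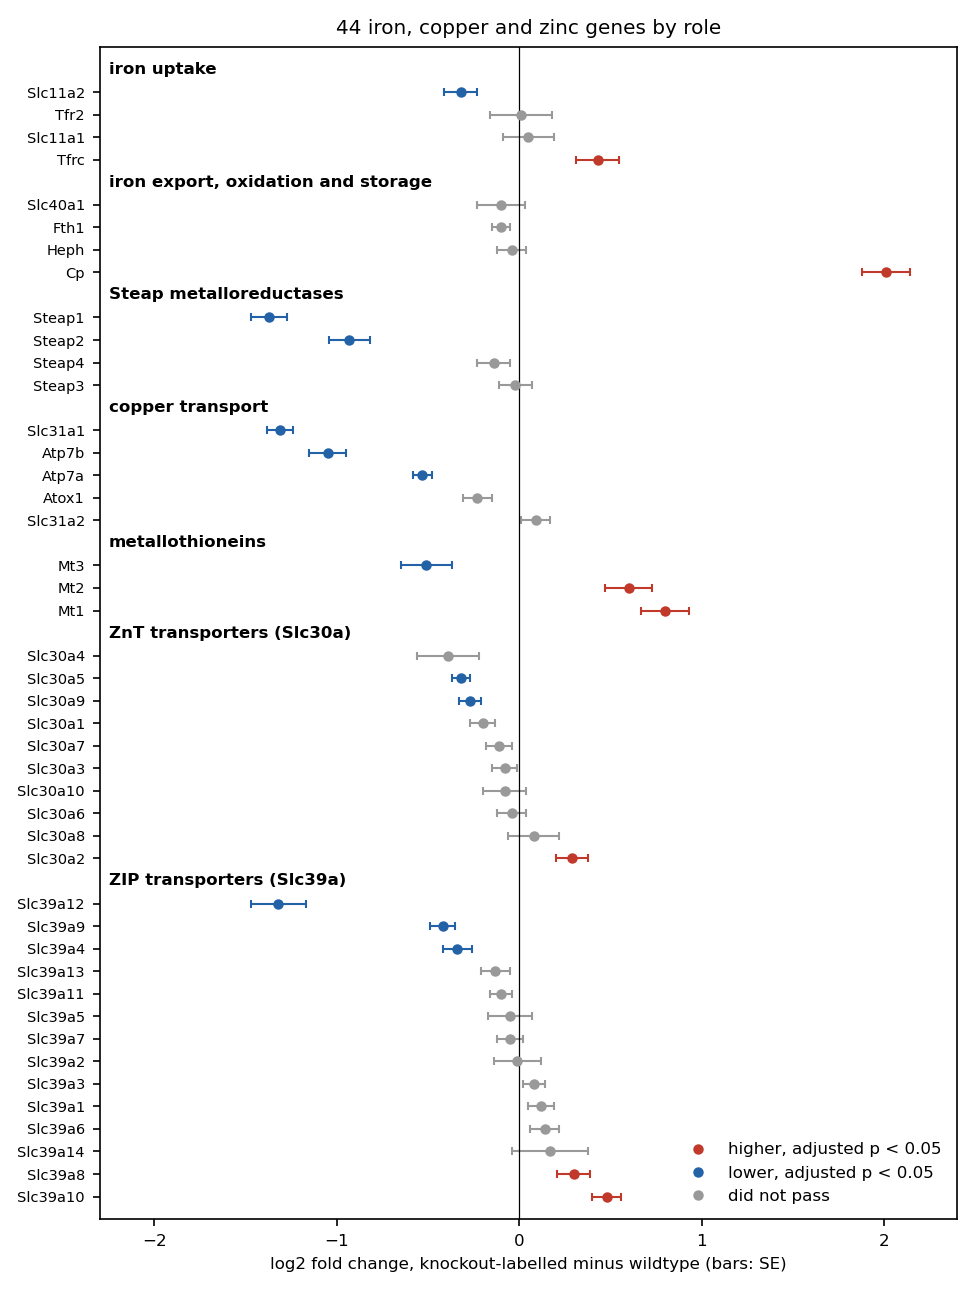
Log2 difference between the knockout-labelled and the wildtype arrays (horizontal axis) for each of the 44 genes, grouped by role, with bars for the standard error and 4 arrays in each group. Red marks the 7 genes called higher, blue the 12 called lower, and grey the 25 that did not pass; Cp at 2.01 lies far to the right of all others, and the lowest are Steap1 at -1.37, Slc39a12 at -1.32 and Slc31a1 at -1.31.

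The Otx2 probe set went against its label. It read 12.38, 12.46, 12.44 and 12.48 in the knockout-labelled arrays and between 11.85 and 12.05 in the wildtype arrays, a difference of 0.47 (adjusted p = 0.000648). The sources do not say whether its probes lie in the removed part, so this reading does not check the labels, and the groups are called by their labels throughout. The Y-linked gene Kdm5d read 2.24 in wildtype replicate 2 and between 6.20 and 8.04 in the other 7 arrays.

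Markers of several cell types moved with the group label. The shares over all genes, to set beside the counts below, were 7.84% called higher and 11.7% called lower. Of 10 measured choroid plexus epithelial markers, 8 were called lower and 1 (Otx2) higher, with a median difference of -1.07, and their summed level ran from 15.23 to 15.39 log2 units in the knockout-labelled arrays against 15.72 to 15.82 in the wildtype. Transthyretin (Ttr), the main secreted protein of this epithelium and a defining marker, did not pass, with a difference of -0.05. It averaged 14.17 in the knockout-labelled arrays and 14.21 in the wildtype, the brightest of the 10, and weighs most in their summed level. Whether a probe set this bright can still show a difference was not tested. Of 12 macrophage markers 9 were called higher (median 0.59, summed level 13.05 to 13.52 against 12.43 to 12.68), and of 12 stromal and mural markers 10 were called higher and 1 lower (median 0.57, 15.10 to 15.34 against 14.67 to 14.74). The erythroid list had 1 of 10 called lower (median -0.17, 14.65 to 14.97 against 14.82 to 14.93, with Hba-a1 dimmer than the lower quartile of probe sets). Endothelial markers had 1 called higher and 3 lower of 11 (median -0.08, 12.74 to 12.92 against 12.86 to 13.09). Neuronal markers had 0 called of 12 by limma, and 1 with an unadjusted p under 0.05 (median 0.30, 11.53 to 13.37 against 11.23 to 12.87). The part of these markers in the results below was not tested, and in whole tissue, fewer cells of a type and less RNA per cell cannot be told apart.

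The copper route was lower at its entry and at both of its ATPases. Slc31a1, the high-affinity copper importer of the cell surface, read 9.06, 9.14, 8.88 and 9.10 in the knockout-labelled arrays and 10.31, 10.38, 10.34 and 10.37 in the wildtype. The 2 groups lay more than 1 unit apart, and the spread within each was small (SD 0.12 and 0.03). The difference was -1.31 with an SE of 0.07, a 2.48-fold lower level (adjusted p = 5.47e-06), and Slc31a1 stood at rank 26 by p among all 18193 genes. A further probe set of the gene gave -1.21.

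Atp7a, the ATPase that pumps copper into the secretory pathway and out of most cells, read 10.15, 10.17, 10.16 and 10.19 in the knockout-labelled arrays against 10.69, 10.78, 10.65 and 10.69. Its groups did not overlap, and the difference was -0.53 (SE 0.05, adjusted p = 0.000162). Its other probe set gave -0.42. Atp7b, the related ATPase best known from copper excretion by the liver, read 5.93, 6.27, 6.15 and 5.84 against 6.96, 7.21, 7.12 and 7.09. Every knockout-labelled array lay below every wildtype array, by a mean of -1.05 (SE 0.10, 2.07-fold, adjusted p = 0.000111). Its 2 dimmer probe sets, at mean levels of 4.49 and 4.03, gave -0.17 and -0.04 and did not pass.

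Atox1, the chaperone that hands copper to these ATPases, did not pass. It read 10.87, 10.90, 11.13 and 11.09 in the knockout-labelled arrays and 11.20, 11.22, 11.17 and 11.31 in the wildtype, so that the groups just failed to touch, at a difference of -0.23 (SE 0.08, adjusted p = 0.0676). It passed without knockout-labelled replicate 3 (0.0455), with dim genes left out (0.0407) and with a trended variance prior (0.0244). Its probe set carries the suffix of sets that can match several transcripts. A further bright probe set gave -0.23 as well, but with such suffixes left out a dimmer one stood for the gene, at 0.17 (adjusted p = 0.286). Slc31a2, the relative of Slc31a1 that sits in endosomes and lysosomes, averaged 7.79 ± 0.10 against 7.70 ± 0.10 (SD, n = 4 arrays each), a difference of 0.09 (SE 0.08, adjusted p = 0.488). In the genome, Slc31a1 and Slc31a2 are close neighbours on chromosome 4.

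Ceruloplasmin was the gene of the 44 with the largest difference. Cp, the secreted or membrane-anchored copper enzyme that oxidises iron as it leaves the cell, read 9.84, 9.63, 10.34 and 10.00 in the knockout-labelled arrays and 7.95, 7.95, 7.85 and 8.04 in the wildtype. The lowest knockout-labelled array stood more than 1.5 units above the highest wildtype array, and the knockout-labelled arrays were more spread out (SD 0.30 against 0.08). The difference was 2.01 with an SE of 0.13, a 4.02-fold higher level (adjusted p = 1.66e-05) and the 14th largest rise of all 18193 genes. All 8 probe sets of Cp were called higher, by 0.49 to 2.20. The one that gave 0.49 had a mean level of 2.88, below the lower quartile of all probe sets at 4.34.

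The other ferroxidase and the iron exporter did not pass. Heph, the membrane-bound ferroxidase, averaged 8.73 ± 0.15 in the knockout-labelled arrays and 8.77 ± 0.08 in the wildtype (SD, n = 4 each), a difference of -0.04 (SE 0.08, adjusted p = 0.825). Slc40a1, ferroportin, the iron exporter, averaged 9.82 ± 0.23 against 9.92 ± 0.21, a difference of -0.10 (SE 0.13, adjusted p = 0.687). A second, dimmer probe set of Slc40a1 was lower by 0.31 and passed in the fit over probe sets (adjusted p = 0.0294), so the readings of this gene disagree on a call. Fth1, the ferritin heavy chain that stores iron, averaged 13.22 ± 0.05 against 13.32 ± 0.03. Its groups did not overlap, but the difference of -0.10 (SE 0.05) did not pass (adjusted p = 0.263).

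**Figure D2:**
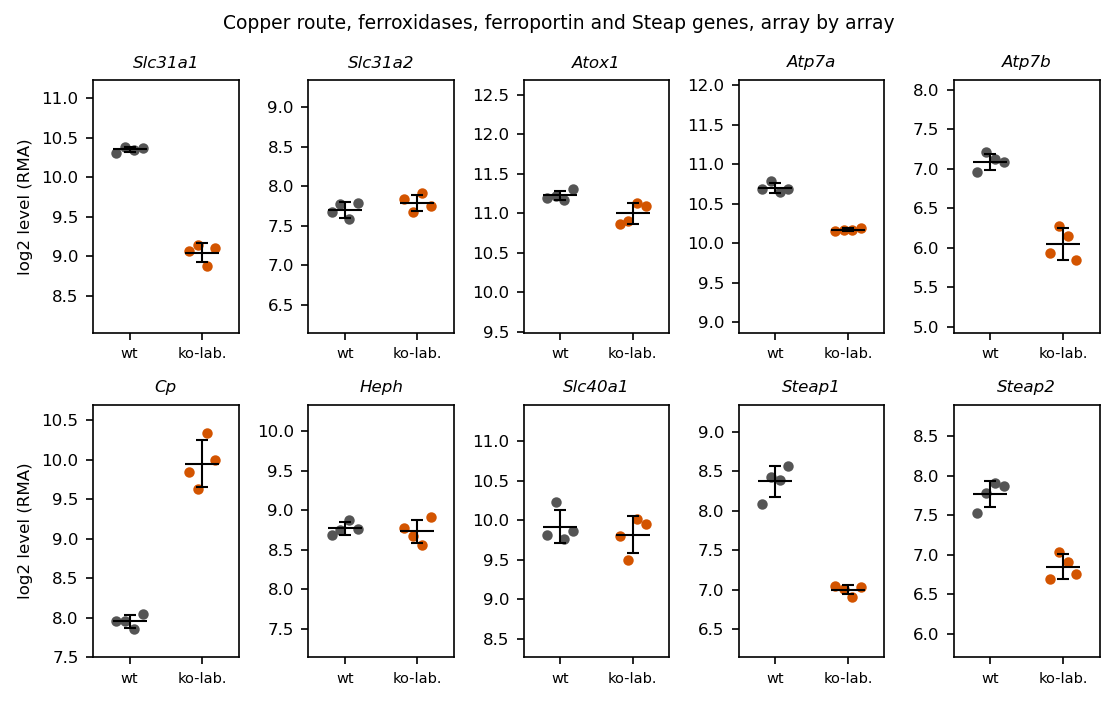
Log2 level (vertical axis, each panel spanning the same number of log2 units) of 10 copper, iron and Steap genes in each of the 4 wildtype arrays (wt, grey) and 4 knockout-labelled arrays (ko-lab., orange), with the mean and SD as bars. The groups are apart for Slc31a1, Atp7a, Atp7b, Cp, Steap1 and Steap2, nearly touch for Atox1, and overlap for Slc31a2, Heph and Slc40a1.

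The Steap family split by member. Steap proteins span the membrane and, apart from Steap1, carry a reductase domain that turns ferric iron and cupric copper into the forms that transporters take up; Steap1 lacks that domain. Steap1 read 7.05, 7.01, 6.91 and 7.03 in the knockout-labelled arrays and 8.08, 8.43, 8.39 and 8.57 in the wildtype. Its groups lay more than 1 unit apart, by a mean of -1.37 (SE 0.10, 2.58-fold lower, adjusted p = 2.41e-05), and its other probe set gave -2.0.

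Steap2 read 6.69, 7.04, 6.91 and 6.76 in the knockout-labelled arrays and 7.53, 7.78, 7.91 and 7.87 in the wildtype, with no overlap. The difference was -0.93 (SE 0.11, 1.90-fold lower, adjusted p = 0.000275), and all 5 of its probe sets were called lower, by -0.69 to -1.21. Those at mean levels of 4.04 and 3.96 were dimmer than the lower quartile of all probe sets (4.34). Steap1 and Steap2 are neighbours on mouse chromosome 5. Steap3, the endosomal ferrireductase of erythroid cells, averaged 5.01 ± 0.14 against 5.03 ± 0.10 (SD, n = 4 each), with a difference of -0.02 (adjusted p = 0.928).

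Steap4, a metalloreductase known from fat and inflamed tissue, had probe sets that pointed in opposite directions. The brighter one averaged 5.97 ± 0.09 in the knockout-labelled arrays and 6.11 ± 0.15 in the wildtype (SD, n = 4 each), a difference of -0.14 that did not pass (adjusted p = 0.315). The dimmer one averaged 5.54 against 4.54, a difference of 0.99 that passed over all probe sets (adjusted p = 0.00939). With the mean of its probe sets in place of the brighter one, Steap4 turned to 0.43 (adjusted p = 0.032), so no direction is given for it.

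Iron uptake had 1 gene called higher and 1 lower among its 4. Tfrc, the transferrin receptor, read 9.40, 9.09, 8.91 and 8.90 in the knockout-labelled arrays and 8.72, 8.71, 8.70 and 8.46 in the wildtype. The groups did not overlap, although the gap between them was narrow, and the difference was 0.43 (SE 0.12, adjusted p = 0.0302). This call was lost without wildtype replicate 2, 3 or 4, at adjusted p of 0.0569, 0.062 and 0.0851, and with the mean of its 3 probe sets the difference was 0.14 (adjusted p = 0.344).

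Slc11a2, the proton-coupled importer of ferrous iron known as DMT1, read 6.38, 6.75, 6.53 and 6.45 in the knockout-labelled arrays and 6.75, 6.98, 6.82 and 6.86 in the wildtype. Knockout-labelled replicate 2 stood at the level of wildtype replicate 1 to within rounding. The difference was -0.32 (SE 0.09, adjusted p = 0.0315), and a further probe set gave -0.30 and passed, while the other 2 gave 0.00 and -0.03. The call was lost in 6 of 8 fits that left out 1 array, at adjusted p of up to 0.0926, with the mean of its probe sets (-0.16, adjusted p = 0.149) and with a sex covariate (adjusted p = 0.0541). Slc11a1, the related transporter of macrophage phagosomes, averaged 7.39 ± 0.29 against 7.34 ± 0.12 (SD, n = 4 each) and did not pass (adjusted p = 0.873), beside 9 of 12 macrophage markers called higher. Tfr2, the receptor that senses transferrin in liver cells, averaged 7.73 ± 0.19 against 7.72 ± 0.37 (adjusted p = 0.983).

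The metallothioneins, small cysteine-rich proteins, moved in opposite directions. Mt1 and Mt2, the widely expressed members, which metals and glucocorticoids are known to induce, were higher, and Mt3, the member first known from brain, was lower. Mt1 read 9.69, 9.54, 9.81 and 9.55 in the knockout-labelled arrays and 8.92, 8.86, 8.48 and 9.13 in the wildtype, a difference of 0.80 (SE 0.13, 1.74-fold, adjusted p = 0.0021) with no overlap. The probe set behind this value carries the suffix of sets that can match several transcripts. The other Mt1 probe set, which does not, lay at a mean level of 5.94 and gave 0.03 (adjusted p = 0.812 over probe sets), so the rise of Mt1 rests on 1 reading that can match other transcripts too.

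Mt2 read 9.72, 9.57, 9.42 and 9.39 against 8.97, 8.96, 8.59 and 9.19. The groups did not overlap, and the difference was 0.60 (SE 0.13, 1.52-fold, adjusted p = 0.00857). Mt3 read 7.07, 7.55, 7.72 and 7.62 in the knockout-labelled arrays and 7.84, 7.95, 8.23 and 7.98 in the wildtype. No array of either group reached into the other, and the difference was -0.51 (SE 0.14, adjusted p = 0.0327). The call of Mt3 was lost without wildtype replicate 2, 3 or 4, at adjusted p of 0.0655, 0.0944 and 0.0708.

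Mt3, Mt2 and Mt1 lie next to each other on mouse chromosome 8, and their upstream sequences are printed to show how far neighbours that moved apart differ there. The sequences are RefSeq's on GRCm38.p6, 250 bases up to the base before the annotated start, on the plus strand at chr8:94178839-94179088 for Mt1, chr8:94172368-94172617 for Mt2 and chr8:94152357-94152606 for Mt3. Capitals mark the core of the metal response element, the motif bound by the zinc-sensing factor Mtf1, searched as TGCACNC or TGCGCNC on both strands.
Mt1: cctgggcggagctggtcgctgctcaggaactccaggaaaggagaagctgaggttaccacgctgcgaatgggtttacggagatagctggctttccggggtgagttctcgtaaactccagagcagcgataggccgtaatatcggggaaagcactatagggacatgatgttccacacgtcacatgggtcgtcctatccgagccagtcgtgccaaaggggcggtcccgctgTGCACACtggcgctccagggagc
Mt2: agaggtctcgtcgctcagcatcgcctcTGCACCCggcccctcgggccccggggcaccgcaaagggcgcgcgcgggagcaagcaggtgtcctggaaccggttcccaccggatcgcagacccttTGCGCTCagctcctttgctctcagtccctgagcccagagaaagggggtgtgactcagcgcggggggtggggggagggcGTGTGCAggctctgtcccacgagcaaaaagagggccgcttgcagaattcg
Mt3: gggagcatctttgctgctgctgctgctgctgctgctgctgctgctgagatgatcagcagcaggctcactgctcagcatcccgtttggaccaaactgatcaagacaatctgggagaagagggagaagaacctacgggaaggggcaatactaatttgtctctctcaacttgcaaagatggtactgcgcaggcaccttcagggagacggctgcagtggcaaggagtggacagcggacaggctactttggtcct
Within these 250 bases the core was found 3 times for Mt2, 1 time for Mt1 and 0 times for Mt3. The annotated start sets which bases were searched, and those after it were not. The counts therefore do not cover the whole promoter of a gene and do not rank the 3 promoters. Of 32851 mouse promoter windows searched over the same length, 21.4% held the core at least 1 time and 1.26% held it 3 or more times. Windows were given for 37 of the 44 genes (52 windows), all but Slc11a2, Slc40a1, Heph, Slc30a8, Slc39a4, Slc39a6 and Slc39a14. The core was found in 19 of these 52 windows (36.5%), against the 21.4% of all windows. Counted by gene, in any of its windows, it was found for 18 of the 37 (48.6%), against 23.8% of all 27025 genes with a window. It was present for 5 of the 7 genes called higher, 5 of 10 called lower and 8 of 20 that did not pass. A match describes the letters only and is not a binding site.

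Of the 10 ZnT transporters, 1 was called higher and 2 lower (30.0%, beside 19.6% of all genes), with a median difference of -0.09. Slc30a5, which forms a complex that brings zinc into the secretory pathway, read 9.44, 9.43, 9.45 and 9.48 in the knockout-labelled arrays and 9.76, 9.78, 9.73 and 9.82 in the wildtype. The spread within the groups was small (SD 0.02 and 0.04), and the difference was -0.32 (SE 0.05, 1.25-fold lower, adjusted p = 0.0021). Slc30a9, a member found in mitochondria, read 9.51, 9.58, 9.67 and 9.67 against 9.92, 9.87, 9.89 and 9.82, again with no overlap and a difference of -0.27 (SE 0.06, adjusted p = 0.0127).

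Slc30a2, which loads zinc into vesicles of secretory glands, was called higher from low levels. It read 4.35, 4.62, 4.40 and 4.30 in the knockout-labelled arrays and 3.98, 4.17, 4.26 and 4.08 in the wildtype, close to the lower quartile of all probe sets at 4.34. The difference was 0.29 (SE 0.09, adjusted p = 0.0446), and the call was lost in 6 of 8 fits that left out 1 array, at adjusted p of up to 0.11, with arrays centred on their medians (0.0634), with a trended variance prior (0.0635) and with a sex covariate (0.0674).

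Slc30a4, known from zinc secretion into milk, turned on 1 array. It read 9.32, 9.23, 10.09 and 9.26 in the knockout-labelled arrays and 9.86, 9.91, 9.87 and 9.81 in the wildtype. Knockout-labelled replicate 3 stood above every wildtype array, and the other 3 stood below all of them. With all arrays the difference was -0.39 (SE 0.17, adjusted p = 0.162), and without replicate 3 it was -0.59 and passed (adjusted p = 0.000446).

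Slc30a1, the zinc exporter of the cell surface, read 9.36, 9.53, 9.44 and 9.47 in the knockout-labelled arrays and 9.58, 9.73, 9.55 and 9.73 in the wildtype, and did not pass (difference -0.20, SE 0.07, adjusted p = 0.0683). It passed with array weights (0.0329), with dim genes left out (0.0388) and with a trended variance prior (0.0375). With the mean of its probe sets, the dimmer of which gave -0.07, the difference was -0.14 and did not pass (adjusted p = 0.203). The remaining 5, Slc30a3, Slc30a6, Slc30a7, Slc30a8 and Slc30a10, differed by -0.11 to 0.08 and did not pass.

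Of the 14 ZIP transporters, 2 were called higher and 3 lower (35.7%, beside 19.6% of all genes), with a median difference of -0.03. Slc39a12, a zinc importer known from brain, read 6.91, 7.27, 7.69 and 7.52 in the knockout-labelled arrays and 8.50, 8.70, 8.80 and 8.68 in the wildtype. The groups did not overlap, and the knockout-labelled arrays were the more spread (SD 0.34 against 0.13). The difference was -1.32 (SE 0.15, 2.50-fold lower, adjusted p = 0.000287), and a dim second probe set at a mean level of 3.22 gave -0.26 and did not pass.

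Slc39a10, a zinc importer of the cell surface, was the ZIP gene with the largest rise. It read 11.40, 11.17, 11.26 and 11.29 in the knockout-labelled arrays and 10.90, 10.85, 10.65 and 10.81 in the wildtype. The groups did not overlap, and the difference was 0.48 (SE 0.08, 1.39-fold, adjusted p = 0.00205). With the mean of its 2 probe sets, the dimmer of which gave 0.13, the difference was 0.30 and did not pass (adjusted p = 0.098).

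Slc39a8, which carries zinc, manganese and iron, read 8.68, 8.45, 8.70 and 8.55 against 8.16, 8.47, 8.17 and 8.38. It was the only called gene of the 44 whose groups overlapped, with wildtype replicate 2 above knockout-labelled replicate 2, and the difference was 0.30 (SE 0.09, adjusted p = 0.0452). The call was lost with the replicate number as a block (adjusted p = 0.101), in 6 of 8 fits that left out 1 array (up to 0.123), with arrays centred on their medians (0.0756) and with the mean of its probe sets (difference 0.09, adjusted p = 0.67).

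Slc39a9, a ZIP member of the Golgi, read 8.53, 8.74, 8.74 and 8.68 in the knockout-labelled arrays and 9.12, 9.18, 9.05 and 9.04 in the wildtype, a difference of -0.42 (SE 0.07, adjusted p = 0.0022) with no overlap. Its 2 dim probe sets gave 0.03 and 0.13, and with the mean of all its probe sets the difference was -0.09 and did not pass (adjusted p = 0.503). Slc39a4, the intestinal zinc importer, read 5.19, 5.53, 5.24 and 5.20 against 5.64, 5.66, 5.64 and 5.60, below the median of all probe sets at 5.88. The difference was -0.34 (SE 0.08, adjusted p = 0.0164). The call of Slc39a4 was kept in all 8 fits that left out 1 array, but only narrowly without knockout-labelled replicate 1 (adjusted p 0.05 after rounding).

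The other 9 ZIP genes did not pass, with differences from -0.13 (Slc39a13) to 0.17 (Slc39a14). Slc39a14, which also imports iron that is not bound to transferrin, read 7.44, 7.31, 8.45 and 7.60 in the knockout-labelled arrays and 7.57, 7.37, 7.56 and 7.62 in the wildtype (SE 0.21, adjusted p = 0.665). As for Slc30a4, knockout-labelled replicate 3 was the highest array. Slc39a11 had groups that did not overlap, at 8.43 ± 0.06 against 8.53 ± 0.02 (SD, n = 4 each), and a difference of -0.10 that did not pass (adjusted p = 0.251).

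**Figure D3:**
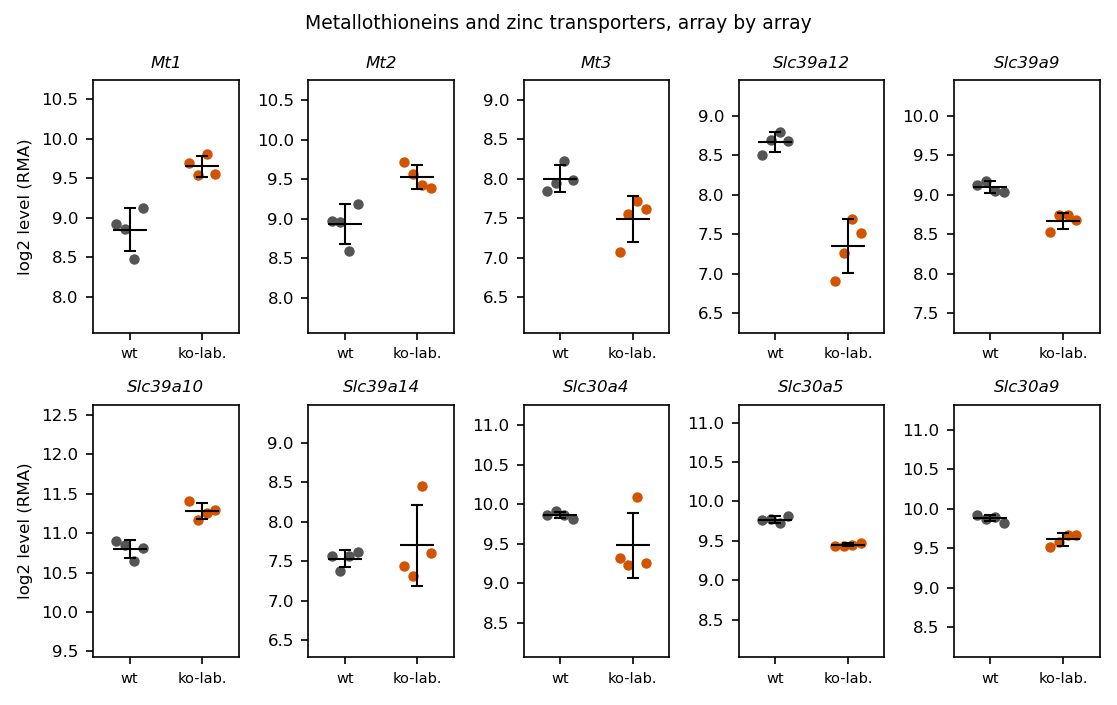
Log2 level (vertical axis, each panel spanning the same number of log2 units) of the 3 metallothioneins and 7 zinc transporters in each of the 4 wildtype arrays (wt, grey) and 4 knockout-labelled arrays (ko-lab., orange), with the mean and SD as bars. Mt1, Mt2 and Slc39a10 are higher and Mt3, Slc39a12, Slc39a9, Slc30a5 and Slc30a9 lower in the knockout-labelled arrays; knockout-labelled replicate 3 stands alone at 8.45 for Slc39a14 and at 10.09 for Slc30a4.

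Otx2 and its relatives bind DNA through a homeodomain of the bicoid type, whose known core is TAATCC, and this core was searched on both strands of the same 250 bases. It was found in 4 of the 52 windows (7.69%), near the 6.25% of all 32851 windows. By gene it was found for 4 of the 37 with a window (10.8%, against 7.21% of all 27025 genes), namely Slc39a12 and Steap2 among the 10 called lower, 0 of the 7 called higher, and Slc30a6 and Slc39a2 among the 20 that did not pass. The 150 bases that hold it are printed for the 2 genes called lower, with the core or its reverse complement in capitals, at chr2:14388248-14388397 on the plus strand for Slc39a12 and chr5:5694569-5694718 on the minus strand for Steap2 (GRCm38.p6).
Slc39a12: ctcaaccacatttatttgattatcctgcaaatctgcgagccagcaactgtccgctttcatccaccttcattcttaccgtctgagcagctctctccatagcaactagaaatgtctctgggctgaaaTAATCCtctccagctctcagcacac
Steap2: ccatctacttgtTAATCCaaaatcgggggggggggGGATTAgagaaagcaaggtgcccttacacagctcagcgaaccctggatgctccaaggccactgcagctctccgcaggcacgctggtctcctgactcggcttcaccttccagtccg
The sequence of Slc39a12 held the core 1 time. That of Steap2 held it 2 times, in 1 of the 3 windows given for this gene. Neither the absence of these letters nor their presence says whether a factor binds there.

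Where a gene had several probe sets, they did not always give the same call. Of the 19 genes called, 13 had further probe sets, 6 of them had another that was called the same way, and 0 had one called the opposite way. The 6 were Cp, Steap1, Steap2, Slc31a1, Atp7a and Slc11a2. The other 6 called genes had 1 probe set only. Of the genes that were not called, Slc40a1 and Steap4 each had a dimmer probe set that was. In the limma fit over probe sets, those that stood for Slc30a2 and Slc39a8 did not pass (adjusted p = 0.0547 and 0.0548).

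**Figure D4:**
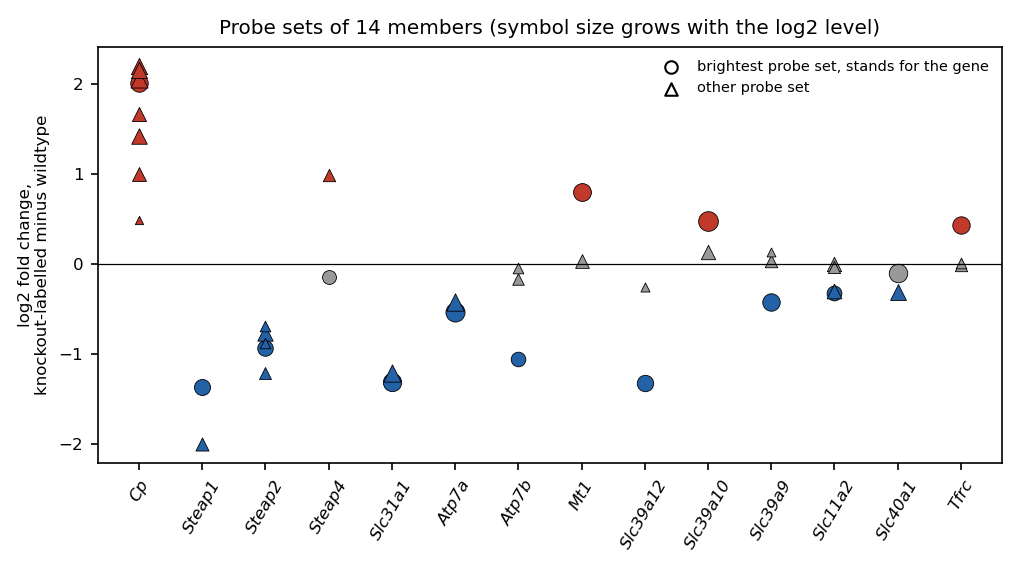
Log2 difference (vertical axis) of each probe set of 14 genes with several probe sets, circles for the brightest one, which stood for the gene, and triangles for the others; symbols grow with the log2 level, red is called higher, blue lower and grey not called. All 8 probe sets of Cp lie between 0.49 and 2.20 and all 5 of Steap2 between -1.21 and -0.69, while Steap4 has a circle at -0.14 and a triangle at 0.99.

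Beyond these families, 54 other genes of iron, copper and zinc handling were read from 3 lists, and 5 were called higher (9.26%) and 8 lower (14.8%), with a median of -0.04. The 24.1% called lie near the 19.6% of all genes. The 27 iron regulators and heme iron genes had 0 called higher and 6 lower in the limma fit, with a median of -0.13, and their called share of 22.2% is near the 19.6% of all genes. At an unadjusted p under 0.05 they had 2 higher (7.41%) and 10 lower (37.0%), where all genes had 14.2% and 16.9%. The 0 became 2 with array weights, with dim genes left out or without knockout-labelled replicate 2, and 1 under 3 other settings. Hfe, the hemochromatosis protein that takes part in setting hepcidin, read 8.32, 8.81, 8.78 and 8.72 in the knockout-labelled arrays and 9.96, 9.91, 10.03 and 10.09 in the wildtype. Its groups lay more than 1 unit apart, with a difference of -1.34 (SE 0.11, 2.53-fold lower, adjusted p = 4.03e-05).

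Scara5, a receptor for ferritin, read 9.08, 9.31, 9.36 and 9.30 in the knockout-labelled arrays and 10.09, 10.12, 10.12 and 10.09 in the wildtype, a difference of -0.84 (SE 0.07, adjusted p = 5e-05). With the mean of its probe sets it was -0.32 and did not pass (adjusted p = 0.0742). Slc22a17, a receptor for the siderophore carrier lipocalin 2, differed by -0.46 (adjusted p = 0.00452). Tmprss6, the protease that restrains hepcidin in liver, differed by -0.53 (adjusted p = 0.00589). Bmp6, an inducer of hepcidin, and Aco1, the iron-sensing regulator of ferritin and transferrin receptor mRNA, were the other 2 called, at -0.55 and -0.23. Both were named after their values were seen. Leaving out 1 array ended the call of Bmp6 in 4 of 8 fits (adjusted p up to 0.0773) and that of Aco1 in 6 of 8 (up to 0.129).

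The 18 copper chaperones and cuproenzymes had 3 called higher and 0 lower in the limma fit, with a median of -0.02, and their called share of 16.7% is below the 19.6% of all genes. At an unadjusted p under 0.05 they had 5 higher (27.8%) and 0 lower, beside the 14.2% and 16.9% of all genes. Lox, a secreted copper enzyme that crosslinks collagen and elastin, read 9.94, 9.54, 10.15 and 9.72 in the knockout-labelled arrays and 8.30, 8.34, 8.91 and 8.53 in the wildtype, a difference of 1.32 (SE 0.16, 2.49-fold, adjusted p = 0.000426). Moxd1, a relative of the copper enzyme dopamine beta-hydroxylase, differed by 0.89 (adjusted p = 0.00089). Loxl1, a further lysyl oxidase, differed by 0.42 (adjusted p = 0.0407), a call lost in 7 of 8 fits that left out 1 array (up to 0.106). Beside these rises, 10 of 12 stromal and mural markers were called higher, and the part of those cells was not tested. With the replicate number as a block, 5 of the list were called higher.

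Of the 9 zinc and manganese genes, 2 were called higher and 2 lower (44.4%, beside 19.6% of all genes), with a median of 0.02. S100b, a protein of glia that binds calcium and zinc, read 6.94, 6.84, 7.44 and 7.46 in the knockout-labelled arrays and 4.84, 5.04, 5.30 and 5.00 in the wildtype. The groups lay more than 1.5 units apart, and the difference was 2.12 (SE 0.16, 4.35-fold, adjusted p = 2.82e-05). Mtf1, the factor that senses zinc and induces Mt1 and Mt2, read 7.70, 7.83, 7.78 and 7.91 against 8.37, 8.34, 8.22 and 8.40, a difference of -0.53 (SE 0.07, adjusted p = 0.000602). Mtf1 was lower in the arrays in which Mt1 and Mt2 were higher. Atp2c1, the Golgi pump for calcium and manganese, differed by -0.49 (adjusted p = 0.000839), and the zinc protease Mme by 0.52 (adjusted p = 0.00832).

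**Figure D5:**
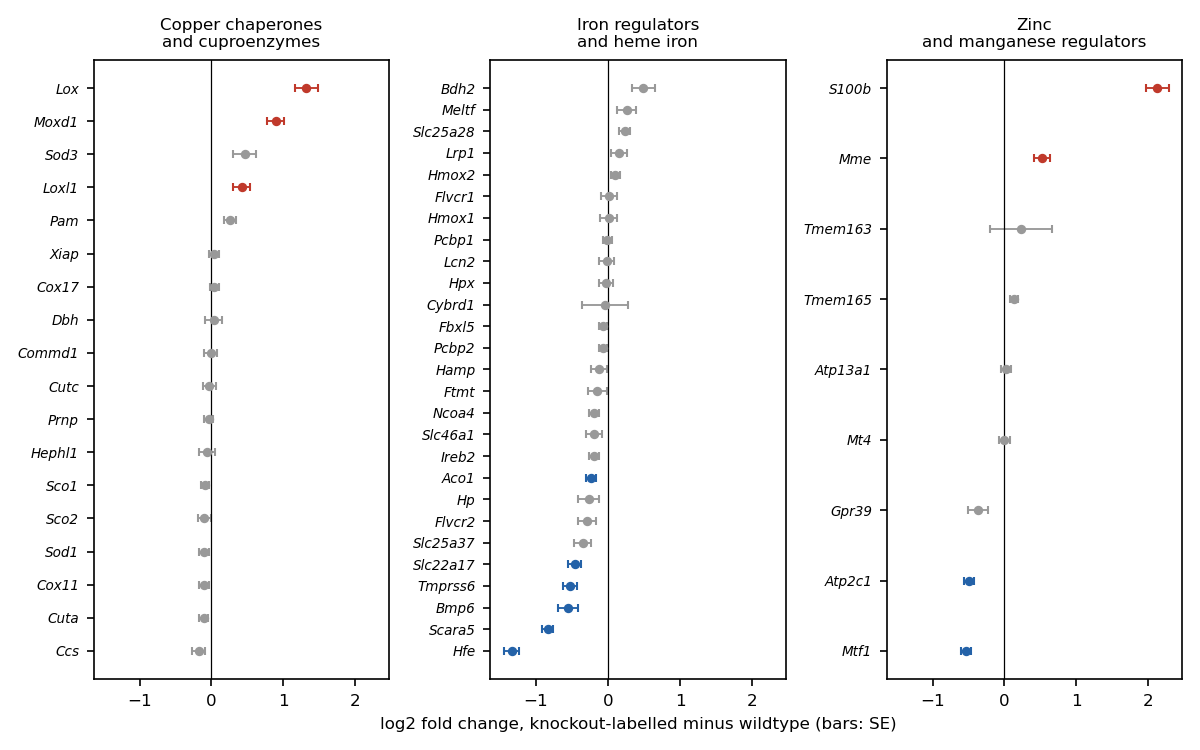
Log2 difference between knockout-labelled and wildtype arrays (horizontal axis, bars for the standard error, 4 arrays in each group) for the 18 copper, 27 iron and 9 zinc and manganese genes of the 3 lists. Red is called higher, blue lower and grey not called; S100b at 2.12 and Lox at 1.32 lie farthest right and Hfe at -1.34 farthest left.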

How the data were processed

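Per the submitters' processing notes, the authors used RMA, and the deposited values are log2 levels of probe sets. RMA corrects background, equalises probe distributions between arrays and summarises probe sets, so that a change in total RNA per cell is not visible. The sources used here give no software version or filter. Array medians lay between 5.8857 and 5.8985 in the knockout-labelled arrays and between 5.8541 and 5.8763 in the wildtype, without overlap. With arrays centred on their medians, 5 of the 44 genes were called higher and 12 lower. The number of arrays limits the precision. The table held 45101 probe sets, 64 of them controls; the platform annotation gives 1 gene for 34945 and several for 932. The identifiers of all 44 genes matched the reference gene table (GRCm38.p6).

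All 18193 genes were fitted in limma 3.58.1 under R 4.3.3 (lmFit and eBayes; two-sided tests; only genotype in the model; unfiltered), with Benjamini-Hochberg adjustment over all genes. Probe sets were fitted separately over all 34945. Values are means ± SD over 4 arrays. The genes, lists and motifs were chosen with earlier results of these data known. Every gene of the rule was accounted for, with values array by array for called genes whose groups did not overlap. From each wider list up to 4 called genes with the smallest p were named. Values array by array for other genes were given after they were seen.

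Deviations from the group means correlated across genes at 0.131, 0.232, 0.160 and 0.223 between same-numbered arrays of the 2 groups. Other combinations ranged from -0.296 to 0.294, a range that holds all of these values. The same-numbered values were all positive, and a comparison with this range cannot decide whether same-numbered arrays were pairs. No label says what a number marks. Alternatives were a replicate block, a trended robust variance prior, array weights, other choices of probe set, a filter on dim genes, 2 further normalizations, a stricter threshold, each array left out, and a sex covariate, chosen after seeing the data. Code for the fits was tested on simulated data. Promoter sequences are RefSeq's.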

Additional observations from a re-analysis of the deposited data

Results flagged for a closer look

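A single array stood apart from the other 3 of its group for 3 of the 44 genes by Dixon's test, which compares the gap to the nearest array with the whole range of the group with a fixed critical value. Chance marks about 1 group in 20, and 3 of 116 groups were marked, counting Otx2 and the genes of the wider lists that the text names. Slc30a4 stood at 10.09 in knockout-labelled replicate 3 against 9.23 to 9.32 in the others (ratio 0.89). Slc39a4 stood at 5.53 in knockout-labelled replicate 2 against 5.19 to 5.24 (ratio 0.841). Tfrc stood at 8.46 in wildtype replicate 4 against 8.70 to 8.72 (ratio 0.903).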

How the results depend on the processing

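Of the 19 genes called, 9 kept the call under every one of the 18 alternatives (Atp7a, Atp7b, Cp, Mt2, Slc30a5, Slc31a1, Slc39a12, Steap1 and Steap2), 14 kept it in all 8 fits that left out 1 array, and 0 changed direction under these alternatives. Of the 25 genes not called, 21 stayed so under every alternative that tested them, and 14 changed sign under at least 1. Among the 21, Slc30a8, Slc39a2 and Steap3 were tested under 17, because the filter on dim genes left them out. The genes called higher numbered 4 at an adjusted p under 0.01 and 4 without wildtype replicate 4, instead of 7. Over the fits without 1 array they ranged from 4 to 6, the genes called lower from 10 to 13, and the median difference from -0.10 to -0.07. The wider lists ranged from 4 to 7 called higher and from 6 to 10 called lower. Steap4 turned from -0.14 to 0.43 with the mean of its probe sets, which adds its dimmer, higher reading. Mt1 fell to 0.03 (adjusted p = 0.8) when probe sets with shared suffixes were left out. With the replicate number as a block, which treats same-numbered arrays as pairs, 6 of the 44 were called higher and 12 lower, Slc39a8 lost its call, and the wider lists had 8 called higher instead of 5. They also had 8 with dim genes left out. For the other changed counts the cause was not tested. Detection calls are not analysed here, so levels near the lower quartile (4.34) cannot be separated from background.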
